A study of Mus musculus with 36 samples.

Results

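Chemokine receptors are membrane proteins that guide T cells along gradients of small secreted proteins, the chemokines. Naive CD4+ T cells carry receptors that keep them circulating through lymphoid tissue, and activated cells replace part of these with receptors for chemokines made in inflamed tissue. Receptor sets also go with helper subsets: Cxcr3 marks T helper type 1 (Th1) cells, Ccr6 T helper type 17 (Th17) cells, and Ccr4 and Ccr8 T helper type 2 and regulatory T cells.

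The mRNA levels of 9 chemokine receptor genes (Cxcr4, Cxcr3, Cxcr6, Cx3cr1, Ccr2, Ccr4, Ccr6, Ccr8 and Ccr9) were followed by RNA-seq through mouse CD4+ T cells. The genes were taken by name from a table of 56748 genes, and all 9 were found. Cells came from 2 mutant mouse lines on a mixed 129/Sv and C57BL/6 background. In the HP1a line the Cbx5 gene, which encodes the heterochromatin protein HP1α, was excised in the germ line by a CMV-Cre transgene, so that all tissues of Hp1a-/- mice lack it, and Hp1a+/+ littermates were the wild-type (WT) controls. In the HP1g line a floxed Cbx3 gene, which encodes HP1γ, was excised by Cd4-Cre, which acts in developing T cells of both the CD4 and the CD8 lineage, and littermates carrying the floxed gene without Cre were the WT controls. HP1 proteins bind methylated histone H3 in silent chromatin.

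Each genotype, WT or knock-out (KO), was sampled in 3 conditions. Naive cells were CD4+ T cells isolated from the mice by negative magnetic selection. Tconv were conventional CD4+ T cells transferred with syngeneic B6 and semi-allogeneic B6D2F1 bone marrow into lethally irradiated B6 hosts, and recovered from the spleen 3 weeks later by sorting for the T cell receptor chain Vβ6, which responds to the allogeneic donor. For Tconv with Treg, expanded WT regulatory T cells (Treg) were injected into the hosts as well, and their Thy1.1 mark served to gate them out of the sort. All grafted cells, in every group, therefore came from irradiated hosts with allogeneic marrow. There were thus 12 groups with 3 libraries each. One library of Treg-exposed HP1g KO cells, replicate 3, is not used here because of its read quality, which leaves 2 libraries in that group and 35 in all. The paper states that male mice were used for its sequencing, and that sex-matched littermates within a stated range of ages were compared. The age of the mice of each library, and whether the libraries of a group came from separate animals, are not given in the labels. The labels name no batch either, so p-values measure only the spread between these libraries.

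Library totals ran from 37029519 to 63042245 estimated counts, with a median of 46844690. The targeted genes checked the labels: Cbx5 was lower in each HP1a KO group than in its WT group and Cbx3 lower in each HP1g KO group, without overlap. The summed level of 8 T cell markers lay between 6612 and 11699 counts scaled by library size (CPM) in every library used. Markers of other blood cells were also present and varied among grafted cells. Those of erythroid cells (6 genes) ran from 1.80 to 6145 CPM, those of neutrophils (10 genes) from 0.109 to 594.7 CPM, and those of monocytes and macrophages (10 genes) from 18.7 to 313 CPM. The summed B cell list (10 genes) ran from 94.0 to 466 CPM in grafted cells and from 546 to 892 CPM in naive cells, and the CD8 T or NK cell list (4 genes) did not exceed 30.2 CPM anywhere. In naive cells of the HP1a line, replicate 1 stood apart from replicates 2 and 3 in both genotypes, for Cxcr4, Cxcr3 and Ccr8 and across genes. Its mean chi-square per gene against them was 118 and 121 in KO and 147 and 159 in WT. Between replicates 2 and 3 it was 8.37 in KO and 13.9 in WT. In naive HP1g WT cells replicate 2 stood apart across genes (296 and 277, against 11.9 between replicates 1 and 3). Among grafted cells, replicate 3 of HP1a WT Tconv with Treg stood apart (296 and 325, against 48.7 between replicates 1 and 2). So did replicate 1 of HP1g KO Tconv (161 and 141, against 22.2 between replicates 2 and 3).

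The genes lie on 4 chromosomes, and 6 of them on chromosome 9 (positions in GRCm39). Ccr9 (chr9:123507181-123613395, + strand), Cxcr6 (chr9:123635534-123640825, + strand) and Ccr2 (chr9:123901982-123913594, + strand) share a cluster with other receptor genes, among them Xcr1, Ccr1 and Ccr3. Cx3cr1 (chr9:119877749-119898945, - strand) and Ccr8 (chr9:119921180-119924263, + strand) are neighbours, and Ccr4 (chr9:114319384-114333984, - strand) stands apart from the other receptor genes. Cxcr4 is at chr1:128515936-128520044 (- strand), Ccr6 at chr17:8454869-8475973 (+ strand) and Cxcr3 at chrX:100775141-100777875 (- strand). Cxcr6 lies within Fyco1, which is transcribed from the opposite strand, and Ccr9 overlaps Slc6a20a and the non-coding genes Gm17200 and Gm17021. Other non-coding genes overlap Ccr4 (Gm68433 and Gm68774), Ccr6 (Gm33799) and Cx3cr1 (Gm33858). As the library kit does not mark the strand, reads of such pairs cannot be told apart. Reads that match paralogs as well may be divided between genes, and the Ccr2 counts carry this uncertainty.

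The promoters of Cxcr4, Cxcr6 and Ccr2 are shown, as these 3 receptors were called between cells with and without Treg and their promoters differ in base composition. They are the 250 bases before the RefSeq start in GRCm38.p6, 5′ to 3′ on the gene's strand, and CG pairs are in capitals.
Cxcr4 (chr1:128592300-128592549, - strand): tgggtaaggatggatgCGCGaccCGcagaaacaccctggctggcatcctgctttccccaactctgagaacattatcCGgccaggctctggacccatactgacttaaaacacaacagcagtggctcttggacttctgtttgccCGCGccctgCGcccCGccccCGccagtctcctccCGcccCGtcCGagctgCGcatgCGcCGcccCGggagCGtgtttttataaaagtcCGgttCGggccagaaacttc
Cxcr6 (chr9:123806227-123806476, + strand): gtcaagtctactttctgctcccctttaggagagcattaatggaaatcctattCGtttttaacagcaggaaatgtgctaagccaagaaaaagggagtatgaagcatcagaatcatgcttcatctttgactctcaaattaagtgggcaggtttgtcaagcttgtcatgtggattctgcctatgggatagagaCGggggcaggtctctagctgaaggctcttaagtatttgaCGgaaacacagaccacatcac
Ccr2 (chr9:124101933-124102182, + strand): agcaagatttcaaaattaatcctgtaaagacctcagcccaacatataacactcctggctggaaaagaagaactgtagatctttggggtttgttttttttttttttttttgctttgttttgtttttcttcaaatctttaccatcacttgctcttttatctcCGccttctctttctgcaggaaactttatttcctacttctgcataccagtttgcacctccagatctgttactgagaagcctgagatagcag

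The Cxcr4 promoter held 19 CG pairs, and 80.3% of the 32851 RefSeq promoters of this length held fewer. The Cxcr6 promoter held 3 and the Ccr2 promoter 1, below the median of 6 over all promoters. All 9 genes were matched, by 10 promoters, since Ccr6 has 2 starts, and the other promoters held between 1 and 7 CG pairs. The letters GGGCGG, searched on both strands like the motifs that follow, were in the Cxcr4 promoter alone among the 10 and in 32.7% of all promoters. TATAAA was also found in Cxcr4 alone, in 2 overlapping matches on opposite strands, and in 12.4% of all promoters. GGAAA, a core recognised by NFAT factors, was in 7 of 10 against 55.6% of all, CANNTG in 7 of 10 against 66.2%, and CACCC in 5 of 10 against 52.0%. TCACAC, part of a T-box site, was found only in Cxcr3 (12.3% of all), TGANTCA, an AP-1 site, only in Ccr4 (6.75%), and TTCNNNGAA, a STAT site, only in Ccr6 (7.02%). Matches of different motifs were counted separately where they overlapped. A match describes the letters of these windows only.

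In naive cells Cxcr4, the receptor for the CXCL12 that keeps lymphocytes in marrow and lymphoid tissue, was the highest of the 9 receptors. Levels are given as CPM, and compared between genes only as CPM per kilobase of exon. On the latter scale the median naive level of Cxcr4 was 21.9, followed by 1.43 for Ccr8, 0.934 for Cxcr6 and 0.719 for Ccr9, and the other receptors were below 0.28. In Tconv the order was different. Cxcr6, which binds the membrane-bound CXCL16, led with a median of 468 CPM per kilobase, then Cxcr3, the receptor for the interferon-induced CXCL9, CXCL10 and CXCL11, with 254, and Ccr2, the receptor for CCL2, with 98.0. Cx3cr1, which binds CX3CL1 and marks cytotoxic effector cells, followed with 29.5, Ccr8 with 12.7, Ccr4 with 11.9 and Cxcr4 with 10.2. The lowest were Ccr6, the receptor for CCL20, with 2.27 and Ccr9, the receptor for the gut and thymus chemokine CCL25, with 1.74. The place of Ccr9, in each condition, depends on its long union of exons, 10583 bases against 1466 for Ccr8. These lengths come from an annotation release other than that of the counts. In plain CPM the Tconv median of Ccr9 was 18.5, that of Ccr8 18.6 and that of Ccr6 5.57. All medians here are taken over the libraries of all 4 line and genotype groups. The lead of Cxcr6, Cxcr3 and Ccr2 was the same in the mean of each Tconv group, but in HP1a WT Tconv Cx3cr1 (9.01) stood behind Ccr8 (21.8) and Ccr4 (14.0), and in HP1a KO Tconv (20.5) behind Ccr4 (21.5). In Tconv with Treg the medians per kilobase were 213 for Cxcr3, 170 for Cxcr6, 26.2 for Ccr2 and 14.9 for Cx3cr1. Then came 13.2 for Cxcr4, 10.7 for Ccr8, 9.08 for Ccr4, 4.69 for Ccr6 and 1.14 for Ccr9. Here the order differed between the lines. Cxcr3 was ahead of Cxcr6 in the means of HP1a WT (133 and 105) and HP1a KO (213 and 196), and Cxcr6 ahead of Cxcr3 in those of HP1g WT (375 and 221) and HP1g KO (200.3 and 178). Libraries of neighbouring genes in each of these orders overlapped for many pairs, as the plot of levels per kilobase shows.

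**Figure D1:**
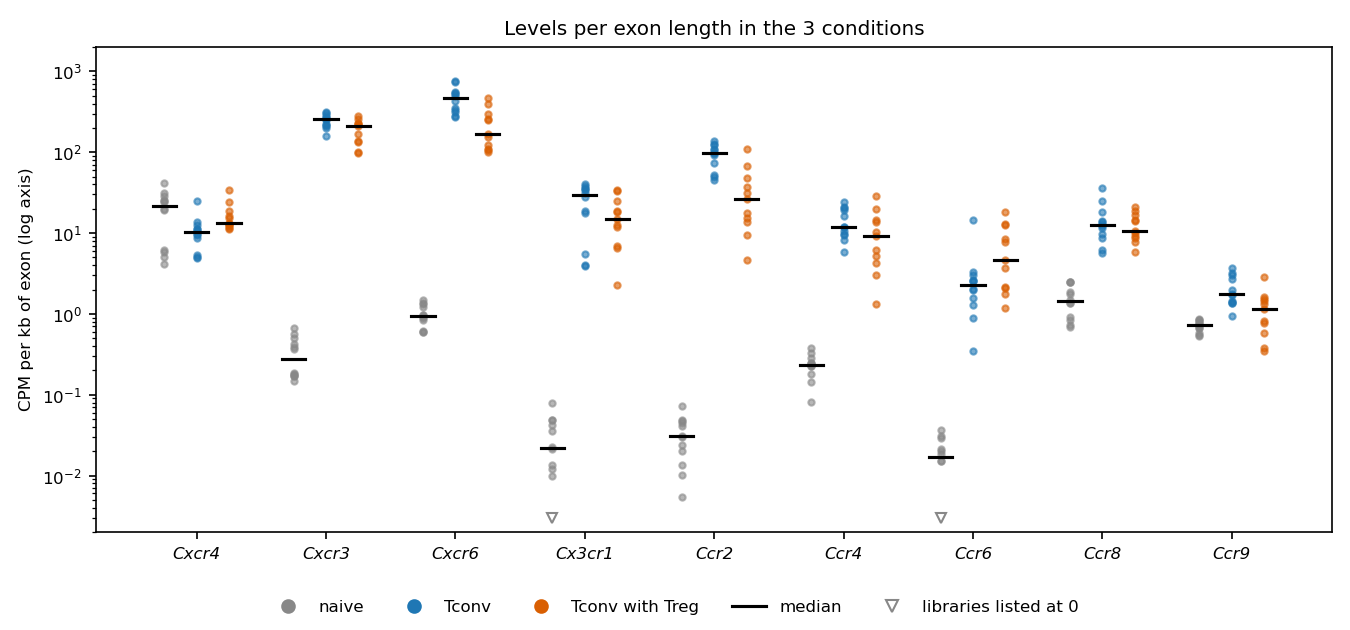
Levels of the 9 receptors in CPM per kilobase of exon (log axis) in naive cells, Tconv and Tconv with Treg, with 1 point per library and a bar at the median. The highest median over all libraries is that of Cxcr4 in naive cells (21.9), of Cxcr6 in Tconv (468) and of Cxcr3 in Tconv with Treg (213), where the group means of Cxcr6 were higher than those of Cxcr3 in the HP1g line.

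Together the 9 receptors took between 19.9 and 74.2 CPM of each naive library. The sums in this paragraph were scaled by plain library totals, not by the adjusted totals behind the other CPM values. They can therefore lie below single levels given elsewhere. The same sum lay between 2311 and 2930 CPM in HP1a WT Tconv and between 1831 and 2381 CPM in HP1a KO Tconv. It lay between 1652 and 2249 CPM in HP1g WT Tconv and between 1603 and 1948 CPM in HP1g KO Tconv. With Treg the HP1a WT libraries held 687 to 745 CPM, below each HP1a WT Tconv library, and the HP1a KO libraries 832 to 1555 CPM. The HP1g WT libraries with Treg held 1428 to 2174 CPM and the HP1g KO libraries 630 to 1295 CPM.

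**Figure D2:**
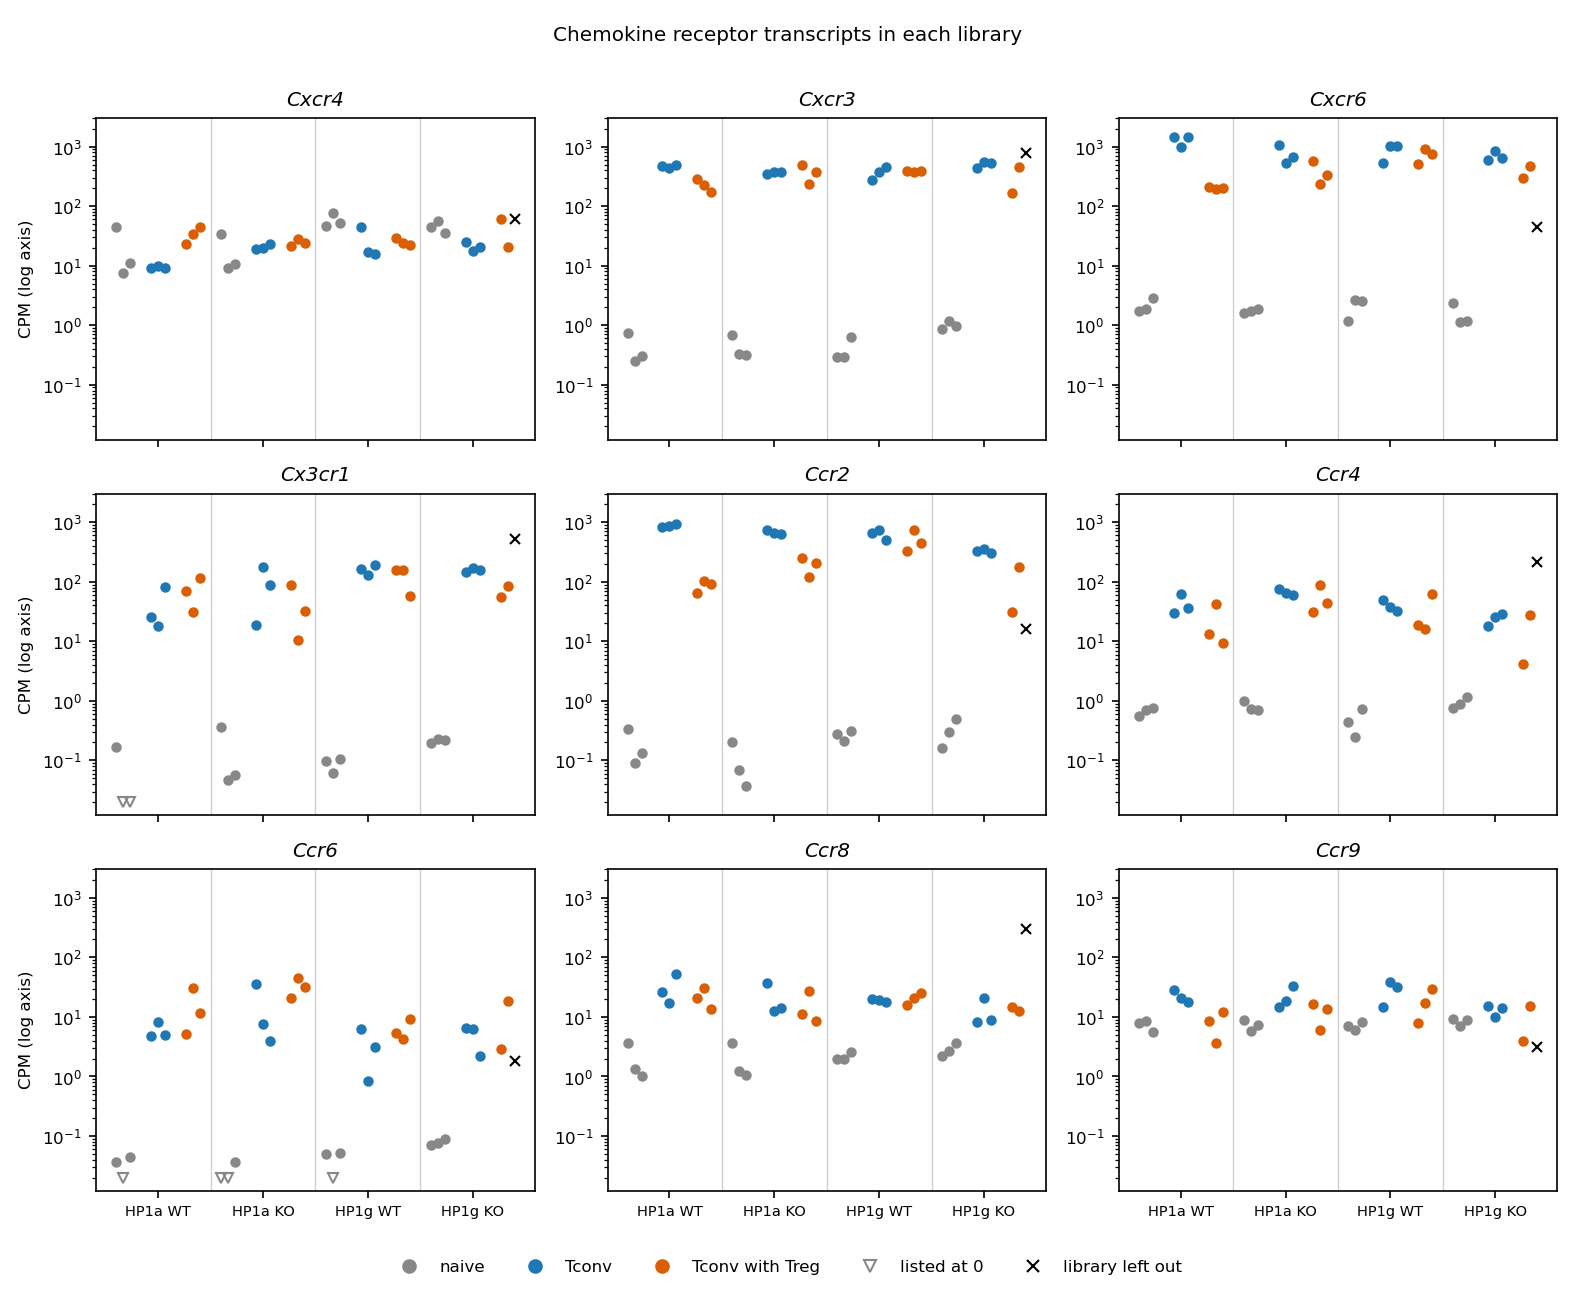
CPM of each receptor (log axis) in each library of the 12 groups, with open triangles for libraries in which a gene was listed at 0 and crosses for the library left out. Naive libraries sit below all grafted libraries for 7 receptors, whereas those of Cxcr4 and Ccr9 overlap with grafted libraries.

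Ccr2 was near the limit of detection in naive cells and among the 3 highest receptors per kilobase in Tconv. In naive cells it lay between 0.0372 and 0.493 CPM, and 2 of the 12 naive libraries had no more than 3 counts, the limit taken as detection. In HP1a WT Tconv the libraries had 837, 851 and 938 CPM, and in HP1a KO Tconv 741, 658 and 623 CPM. HP1g WT Tconv had 668, 729 and 498 CPM and HP1g KO Tconv 334, 353 and 305 CPM. All Tconv libraries of the HP1a line were thus above those of HP1g KO cells. With Treg the HP1a WT libraries had 64.2, 104 and 91.8 CPM, and the HP1a KO libraries 251, 118 and 211 CPM. HP1g WT libraries with Treg had 327, 751 and 454 CPM, and the HP1g KO libraries 31.2 and 177 CPM. The groups ran in order of their means from HP1a WT Tconv (876 ± 54.7 CPM, SD, n = 3) to HP1a KO naive cells (0.104 ± 0.0889 CPM), and 8 of the 11 pairs of neighbours in this order overlapped.

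Cxcr6 had the highest single level, 1451 CPM, in an HP1a WT Tconv library. The other libraries of that group had 972 and 1426 CPM, and HP1a KO Tconv had 1081, 533 and 680 CPM. HP1g WT Tconv had 539, 1018 and 1034 CPM and HP1g KO Tconv 606, 840 and 648 CPM. The genotypes overlapped in both lines. With Treg the HP1a WT libraries lay close together at 210, 196 and 205 CPM, while HP1a KO libraries spread over 569, 239 and 329 CPM. HP1g WT libraries with Treg had 505, 912 and 761 CPM and HP1g KO libraries 295 and 481 CPM. Naive libraries had 1.15 to 2.90 CPM, and 8 of 11 neighbouring groups overlapped.

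Cxcr3 was listed in all 12 naive libraries at 0.256 to 1.17 CPM. HP1a WT Tconv had 473, 442 and 492 CPM and HP1a KO Tconv 342, 380 and 369 CPM, without overlap. HP1g WT Tconv had 274, 382 and 460 CPM and HP1g KO Tconv 438, 545 and 525 CPM. The order of the genotypes was thus opposite in the means of the 2 lines. With Treg the libraries had 288, 230 and 173 CPM in HP1a WT, 490, 235 and 381 CPM in HP1a KO, 384, 368 and 395 CPM in HP1g WT, and 167 and 450 CPM in HP1g KO. Here 8 of 11 neighbouring groups overlapped.

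Cxcr4 was the one receptor with naive libraries above 10 CPM. Naive libraries of the HP1g line had 47.3, 76.1 and 52.6 CPM (WT) and 44.0, 56.9 and 35.7 CPM (KO). Those of the HP1a line had 44.8, 7.59 and 11.3 CPM (WT) and 34.6, 9.32 and 10.7 CPM (KO), with replicate 1 high in both genotypes. HP1a WT Tconv had 8.98, 9.76 and 9.22 CPM and HP1a KO Tconv 19.4, 20.2 and 23.0 CPM, so that every KO library was above every WT library. HP1g WT Tconv had 45.4, 17.0 and 15.9 CPM and HP1g KO Tconv 24.8, 17.7 and 20.4 CPM. With Treg, HP1a WT libraries had 22.7, 34.5 and 44.1 CPM and HP1a KO libraries 21.2, 28.0 and 23.7 CPM. HP1g libraries with Treg had 29.4, 24.0 and 22.4 CPM (WT) and 62.0 and 20.5 CPM (KO). Replicate 1 was thus the highest for Cxcr4 in each grafted group of the HP1g line. The same libraries had erythroid marker sums of 3372 to 6145 CPM, against 76.3 to 308 CPM in the other libraries of these groups. The part of erythroid cells was not tested. All 11 pairs of groups that are neighbours in the order of means overlapped.

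Cx3cr1 and Ccr6 were at or under 3 counts in 5 and 9 of the 12 naive libraries, of which 2 and 4 were at 0, where a floor of 3 counts allows up to 0.0694 CPM. Cx3cr1 varied widely within groups, from 18.8 to 179 CPM in HP1a KO Tconv, from 18.4 to 82.2 CPM in HP1a WT Tconv, and from 130 to 188 CPM in HP1g WT Tconv. Ccr6 had 35.2, 7.49 and 3.90 CPM in HP1a KO Tconv and was highest in HP1a KO Tconv with Treg, with 20.5, 45.1 and 31.4 CPM. In HP1a WT Tconv with Treg the Ccr6 libraries had 5.14, 30.7 and 11.5 CPM and overlapped with the KO libraries. In the HP1g line Ccr6 was between 0.843 and 18.7 CPM in grafted cells. Neighbouring groups overlapped in 10 of 11 cases for Cx3cr1 and in 9 of 11 for Ccr6.

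Ccr4, the receptor for CCL17 and CCL22, was highest in HP1a KO Tconv (66.4 ± 8.14 CPM, n = 3) and at 0.250 to 1.16 CPM in naive cells. Ccr8, which binds CCL1, was highest in HP1a WT Tconv (32.0 ± 18.5 CPM) and lay between 1.01 and 3.67 CPM in naive cells. Ccr9 was highest in HP1g WT Tconv (28.2 ± 12.4 CPM). Its naive level of 5.64 to 9.07 CPM was within the range of HP1a WT Tconv with Treg (3.69 to 12.03 CPM). Neighbouring groups overlapped in 10 of 11 cases for Ccr4 and Ccr8, and in 11 of 11 for Ccr9.

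To ask which receptors differ between activated and naive cells, Tconv were compared with naive cells of the same line and genotype. In all 4 line and genotype groups Cxcr3, Cxcr6, Cx3cr1, Ccr2, Ccr4, Ccr6 and Ccr8 rose, and Ccr9 rose in 3 of them. Cxcr4 moved apart from them, with lower mean levels in Tconv in 3 groups and a call in 1. In HP1a WT the lower mean rested on naive replicate 1. A call means an adjusted p under 0.05 in edgeR's quasi-likelihood test together with an absolute log2 fold change above 1. Of the 9 receptors 8 rose in HP1a WT, 8 in HP1a KO, 8 in HP1g WT and 7 in HP1g KO, against 12.9%, 12.4%, 15% and 15.7% of all genes tested. In HP1g KO 1 receptor fell, against 7.3% of genes. Their median log2 fold change was 7.60, 8.77, 6.60 and 5.96 in these groups, and that of all genes tested was between -0.04 and 0.02. In HP1a WT, HP1g WT and HP1g KO the receptor median was the value of Ccr6, which depends on the prior count. As the cells of both conditions are bulk samples, more cells with a transcript and more transcript per cell cannot be told apart. Naive and grafted cells were also isolated in different ways, and this cannot be told apart from activation.

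The fitted log2 fold change of Ccr2 in Tconv over naive cells was 12.21 ± 0.315 (SE) in HP1a WT, 12.70 ± 0.311 in HP1a KO, 11.21 ± 0.310 in HP1g WT and 10.08 ± 0.290 in HP1g KO (edgeR, adjusted p = 1.06e-07, 8.97e-07, 2.97e-06 and 1.87e-07). For Cxcr3 it was 10.10, 9.71, 9.85 and 8.99 in the same order, and for Cxcr6 9.21, 8.77, 8.66 and 8.79. Cx3cr1 differed by 9.59, 9.30, 10.79 and 9.53 and Ccr6 by 7.60, 9.88, 6.60 and 5.96, but with many naive libraries at or under 3 counts, the fitted values for these 2 genes, and for Ccr2 in the HP1a line, depend on the prior count and are no bounds. Ccr4 followed with 6.01, 6.37, 6.40 and 4.72, and Ccr8 with 3.99, 3.44, 3.12 and 2.18. Markers of other cells moved with these differences. Those of monocytes and macrophages, cells that also make Ccr2 and Cx3cr1, summed to 18.7 to 22.9 CPM in HP1a WT Tconv and 15.9 to 19.6 CPM in HP1a WT naive cells, with 1 marker called higher and 1 lower of 7 tested, and Fcgr1 was at 0 in all 3 of these Tconv libraries. In the other groups 6, 6 and 7 of 9 monocyte markers rose. Their sums were 23.5 to 175 against 16.5 to 21.8 CPM in HP1a KO, 26.1 to 86.6 against 17.4 to 22.0 CPM in HP1g WT, and 43.4 to 88.4 against 19.8 to 20.8 CPM in HP1g KO. Erythroid markers fell in HP1a WT (5 of 5 tested) and rose in HP1g WT (6 of 6) and HP1g KO (5 of 6), and B cell markers were mostly lower in Tconv (5, 4, 4 and 6 called lower and 1 higher in each group). The part of other cells in the receptor differences was not tested.

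Ccr9 rose by a log2 fold change of 1.62 ± 0.232 in HP1a WT, 1.62 ± 0.330 in HP1a KO and 2.001 ± 0.353 in HP1g WT (adjusted p = 0.000715, 0.00689 and 0.00379). In HP1g KO its value was 0.68 ± 0.214 (adjusted p = 0.0332), under the fold threshold. Cxcr4 fell by 1.10 ± 0.179 on the log2 scale in HP1g KO (edgeR, adjusted p = 0.00152), from 45.5 ± 10.7 to 20.9 ± 3.56 CPM. This call was lost without replicate 2 of the naive group (-0.94) or replicate 2 of the Tconv group (-0.995), where the fold came under the threshold. In HP1g WT the Cxcr4 value was -1.17 ± 0.417 (edgeR adjusted p = 0.0668). DESeq2 called it (adjusted p = 0.0193), as it did 21.4% of genes. The edgeR value was -1.83 with an adjusted p of 0.00308 without Tconv replicate 1, whose erythroid marker sum was 4974 CPM. In the HP1a line it was -1.19 ± 0.671 in WT (adjusted p = 0.196) and 0.21 ± 0.504 in KO (adjusted p = 0.776). The WT value rested on naive replicate 1 (44.8 CPM). Naive replicates 2 and 3 (7.59 and 11.3 CPM) lay on either side of the WT Tconv libraries (8.98 to 9.76 CPM). Without the high naive replicate 1, Cxcr4 in HP1a KO was higher in Tconv (1.07, adjusted p = 0.00109).

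**Figure D3:**
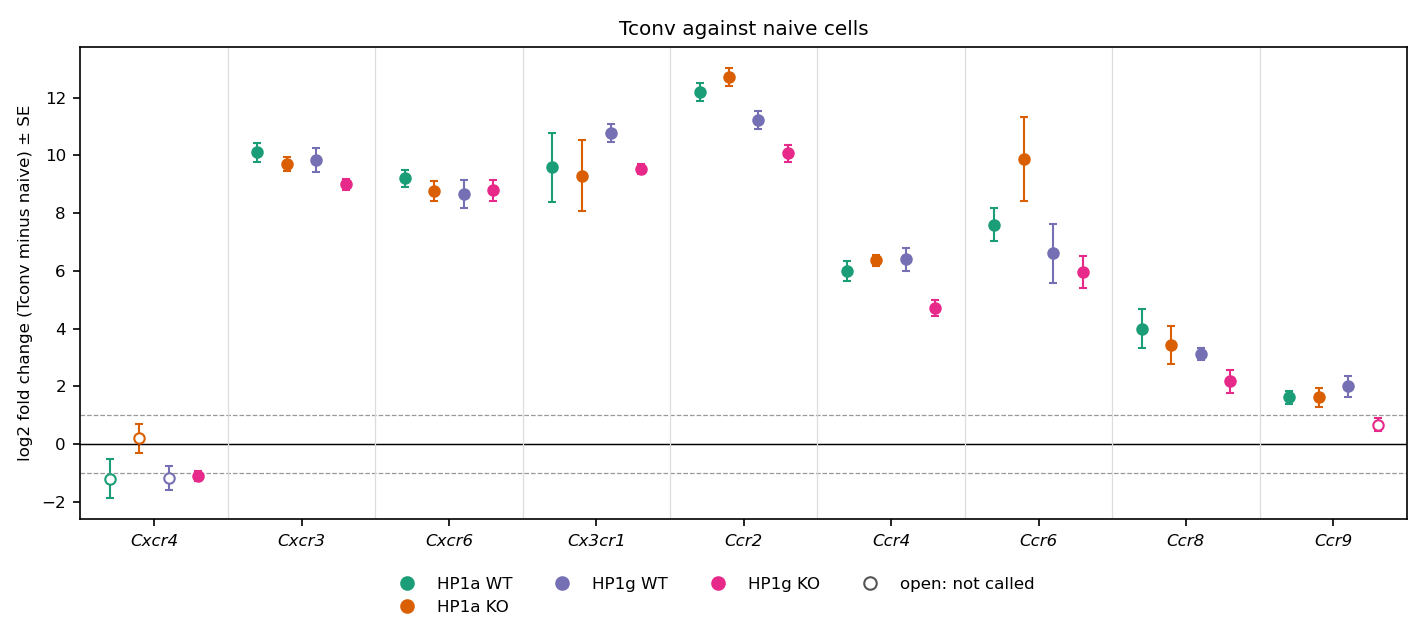
Log2 fold change of each receptor in Tconv over naive cells with its SE, in the 4 line and genotype groups, with filled points for called genes, open points for those not called and dashed lines at the fold threshold of 1. Values run from 12.70 for Ccr2 in HP1a KO down to -1.19 for Cxcr4 in HP1a WT, which was not called and rested on a single high naive library.

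Other genes of the pathway were read from lists. Of 14 other chemokine receptors, 10 were tested in HP1a WT and 9 in the other groups, and 7, 6, 6 and 7 rose in HP1a WT, HP1a KO, HP1g WT and HP1g KO, while 2 fell in each. Ccr7, which brings naive T cells into lymph nodes, fell in each (log2 fold changes -4.12, -3.71, -4.75 and -4.24), in HP1a WT from 1261 ± 159 to 72.2 ± 16.9 CPM. Of 15 genes for ligands of the 9 receptors only 4 were tested in each group, and 2, 2, 3 and 2 of them rose. Among these Cxcl10 rose in all 4 (3.26, 3.31, 2.95 and 3.38), and Ccl1, which was at 0 in all naive libraries, reached 15.8 ± 11.1 CPM in HP1a WT Tconv.

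Of 21 genes of receptor signalling and desensitisation, 20 or 21 were tested, and 2, 3, 4 and 4 rose in the same order while 1, 1, 0 and 3 fell. The shares that rose are near the 12.9%, 12.4%, 15% and 15.7% of all genes that did. Rgs1, which shortens the signal of G proteins, rose from 57.0 ± 71.4 to 768 ± 233 CPM in HP1a WT (3.74, adjusted p = 0.0351), and Arrb1, a β-arrestin, fell (-1.85). Of 10 transcription factors known to act on these receptors, 8, 7, 8 and 7 rose and 1, 1, 2 and 2 fell. Tbx21, which encodes T-bet, the Th1 factor that activates Cxcr3, rose by 10.23, 9.05, 10.09 and 9.47, and Bhlhe40 by 8.98, 8.63, 9.23 and 8.33. Foxo1, which sustains naive T cell genes, fell in each group (-1.08, -1.32, -1.23 and -1.54).

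The next comparison asked whether co-injected Treg alter receptor expression in the responding cells. In HP1a WT cells Ccr2 and Cxcr6 fell and Cxcr4 rose with Treg. These were 3 of the 9 receptors, against 5.96% of all genes called. Ccr2 fell from 876 ± 54.7 to 86.5 ± 20.2 CPM (log2 fold change -3.30 ± 0.213, edgeR adjusted p = 0.00052). Cxcr6 fell from 1283 ± 270 to 204 ± 6.94 CPM (-2.61 ± 0.196, adjusted p = 0.000846). Each of these calls held with any 1 of the 6 libraries left out. Cxcr4 rose from 9.32 ± 0.401 to 33.8 ± 10.7 CPM (1.90 ± 0.263, adjusted p = 0.0074), and this call was lost without Tconv replicate 1 (adjusted p = 0.0537) or replicate 3 (adjusted p = 0.0554).

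Cxcr3 came just under the fold threshold in the same comparison, at 230 ± 57.4 against 469 ± 25.3 CPM (-0.99 ± 0.199, adjusted p = 0.0272), and passed it without replicate 1 of the Treg group (-1.19, adjusted p = 0.0302). Ccr9 was at 8.14 ± 4.195 against 22.4 ± 5.28 CPM (-1.42 ± 0.424, edgeR adjusted p = 0.0957). DESeq2 called it (adjusted p = 0.00904), 1 of 4 receptors that it called against 9.28% of genes, and edgeR did without replicate 3 of the Treg group (-1.82, adjusted p = 0.0251). Ccr4 (-0.96), Ccr8 (-0.51), Cx3cr1 (0.82) and Ccr6 (1.43) were not called, although Ccr4 was without replicate 2 of the Treg group (-1.89, adjusted p = 0.038). The libraries with and without Treg did not overlap for 5 of the 9 receptors, against 34.8% of all genes.

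In HP1a KO cells 0 of the 9 receptors were called by edgeR, against 0.44% of genes, while 2 had an unadjusted p under 0.05 and DESeq2 called 1 (2.67% of genes). That one was Ccr2, at 193 ± 68.0 CPM with Treg against 674 ± 60.6 CPM without (-1.78 ± 0.278, edgeR adjusted p = 0.0604, DESeq2 adjusted p = 2.35e-13). It passed in edgeR without replicate 2 of the Treg group (-1.53, adjusted p = 0.0145), and its libraries did not overlap, which held for 1 of the 9 receptors and 22.7% of genes. Cxcr6 was at 379 ± 171 against 765 ± 284 CPM (-0.99 ± 0.403, adjusted p = 0.311). With the replicate number as a block, although the numbers did not pair these libraries, Ccr2 and Cxcr6 had adjusted p of 0.0442 and 0.0151. Cxcr4 was at 24.3 ± 3.46 against 20.9 ± 1.89 CPM (0.24 ± 0.134, adjusted p = 0.458), and Cxcr3 differed by 0.04 ± 0.254.

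In HP1g WT cells 0 of 9 receptors were called with Treg, against 0.0126% of genes, 0 had an unadjusted p under 0.05 and DESeq2 called 0 (0.332% of genes). All 9 overlapped between the conditions, where 13.4% of genes did not. The paper states that Treg, at the ratio to Tconv chosen for the HP1g line, did not effectively repress the WT response. Ccr2 was at 511 ± 218 against 632 ± 120 CPM (-0.31 ± 0.310) and Cxcr6 at 726 ± 206 against 864 ± 281 CPM (-0.26 ± 0.312). In HP1g KO cells, with 2 libraries against 3, edgeR again called 0 of 9 and no gene at all (0%), 2 receptors had an unadjusted p under 0.05, and DESeq2 called 1 (1.53% of genes). This was Cx3cr1, at 69.6 ± 21.2 (n = 2) against 157 ± 11.7 CPM (n = 3), with a log2 fold change of -1.18 ± 0.218 (edgeR adjusted p = 0.503, DESeq2 adjusted p = 0.00118). Cxcr6 (-0.85 ± 0.273) and Ccr2 (-1.67 ± 0.690) did not overlap between the conditions either, which made 3 of 9 against 24.4% of genes. The Ccr2 value was -3.42 (adjusted p = 0.0494) without replicate 2 of the Treg group, which leaves 1 library in that group, whose spread is then assumed to be like that of the others.

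**Figure D4:**
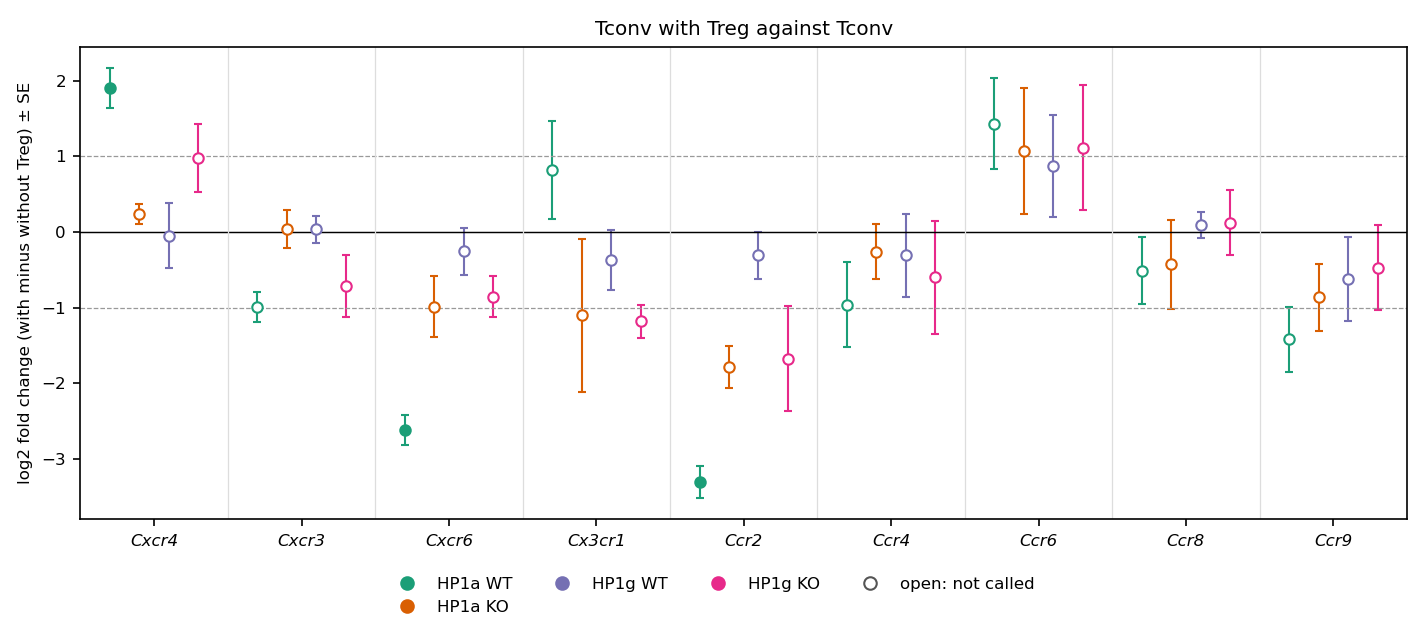
Log2 fold change of each receptor in Tconv with Treg over Tconv with its SE, in the 4 line and genotype groups, with filled points for called genes and dashed lines at the fold threshold of 1. The filled points are Cxcr4 (1.90), Cxcr6 (-2.61) and Ccr2 (-3.30) in HP1a WT.

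In the lists, Treg-exposed HP1a WT cells differed in other receptor genes as well. Among 9 other receptors tested, Cxcr5, which leads T cells to B cell follicles, rose from 25.1 ± 8.92 to 122 ± 69.7 CPM (2.32, adjusted p = 0.0415), and Ccr1, a neighbour of Ccr2 on chromosome 9, fell from 9.71 ± 0.443 to 1.23 ± 0.313 CPM (-2.94, adjusted p = 0.00316). Of the factors 4 of 10 fell and 1 rose. Those that fell were Tbx21 (69 against 231 CPM, -1.71), Gata3 (-1.62), Bhlhe40 (-1.10) and Rora (-1.07), and Eomes rose from 14.2 ± 2.75 to 158 ± 94.9 CPM (3.52). Of 21 signalling genes 3 rose and 1 fell. Rgs16, another brake on G protein signalling, rose from 9.72 ± 3.29 to 290 ± 82.3 CPM (4.94), and S1pr1, the receptor for exit from lymphoid tissue, fell (-1.03). Of 4 ligand genes tested Cxcl10 rose (1.86). In HP1a KO cells Rgs16 (3.18) and Cxcl10 (1.13) rose and no other gene of these lists was called, and in the HP1g line none was.

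In HP1a WT cells marker sums moved with the Treg condition. Here 4 of 10 Treg markers rose, and their sum was 797 to 986 CPM without and 1165 to 1480 CPM with Treg. Of the monocyte and macrophage markers 4 rose and 1 fell among 9 tested, with sums of 18.7 to 22.9 and 37.9 to 54.9 CPM. Neutrophil markers summed to 0.109 to 0.273 CPM without and 1.58 to 40.1 CPM with Treg, with 1 marker tested, which rose, and Elane and Prtn3 were at 0 in both groups. T cell markers summed to 8231 to 8743 CPM without and 9423 to 11304 CPM with Treg, with 0 of 8 called. In the other groups no marker of any list was called. The Treg marker sums with and without Treg overlapped in HP1a KO (717 to 955 and 747 to 993 CPM) and in HP1g WT (674 to 856 and 559 to 830 CPM), and did not in HP1g KO (942 to 1646 and 625 to 906 CPM). In HP1a KO the neutrophil sums were 262 to 461 CPM with and 1.81 to 66.7 CPM without Treg. The part of other cells in the Treg differences was not tested.

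Whether the Treg difference itself depends on the genotype was tested as an interaction, in which the Treg difference in KO cells is taken relative to that in WT cells. In the HP1a line edgeR called 0 of the 9 receptors (0.139% of genes), while 4 had an unadjusted p under 0.05 and DESeq2 called 3 (1.85% of genes). The 3 were Cxcr4 (-1.66 ± 0.295, edgeR adjusted p = 0.0616, DESeq2 8.4e-05), Ccr2 (1.52 ± 0.348, edgeR 0.122, DESeq2 0.00363) and Cxcr6 (1.63 ± 0.454, edgeR 0.21, DESeq2 0.0252). In edgeR Cxcr4 passed without replicate 1 (-1.89, adjusted p = 0.0156) or replicate 3 (-1.41, adjusted p = 0.0309) of WT Tconv with Treg, and Ccr2 without replicate 2 of KO Tconv with Treg (1.79, adjusted p = 0.0183). In the HP1g line edgeR called 0 receptors (0% of genes), 0 had an unadjusted p under 0.05 and DESeq2 called 0 (0.0635% of genes).

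The Treg difference in WT cells was also set against that of the other line, although the line and the experiment cannot be told apart. By the paper's account, WT cells of the HP1g experiment were not effectively repressed at its ratio of Tconv to Treg. The part of that ratio in the differences was not tested. Ccr2 (-3.00 ± 0.387, edgeR adjusted p = 0.00496) and Cxcr6 (-2.37 ± 0.379, adjusted p = 0.0119) were more strongly lowered in HP1a WT than in HP1g WT cells, 2 of 9 against 1.56% of genes, and both calls held with any 1 of the 12 libraries left out. Cxcr4 (1.93 ± 0.516, adjusted p = 0.086) and Cxcr3 (-1.04 ± 0.279, adjusted p = 0.0871) were called by DESeq2 (0.00646 and 0.0192), which called 4 of 9 receptors and 4.54% of genes, but not by edgeR. Cxcr3 passed in edgeR without replicate 1 of HP1a WT Tconv with Treg (-1.24, adjusted p = 0.0488). Rgs16 (3.51) and Rora (-1.54) of the lists also differed, as did 3 of 10 Treg markers, higher in HP1a WT.

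Comparisons of KO with WT cells asked which receptors depend on each HP1 protein. In naive cells of the HP1a line 6 of the 9 receptors passed the filter on low counts, edgeR called 0 of them and 0 of all genes (0%), 0 had an unadjusted p under 0.05, and DESeq2 called 0 (0.0985% of genes). In naive cells of the HP1g line 7 were tested and edgeR called 0 (0.00669% of genes), while 1 had an unadjusted p under 0.05 and DESeq2 called 0 (0.234% of genes). Cxcr3 was at 1.01 ± 0.154 in KO and 0.407 ± 0.195 CPM in WT (1.33 ± 0.403, adjusted p = 0.63), and Ccr4 at 0.933 ± 0.208 and 0.478 ± 0.245 CPM (0.997 ± 0.452, adjusted p = 0.63). These were the 2 of 7 receptors whose genotypes did not overlap, as for 16.8% of genes.

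In Tconv of the HP1a line Cxcr4 was higher in KO cells, 20.9 ± 1.89 against 9.32 ± 0.401 CPM (1.17 ± 0.116, edgeR adjusted p = 0.0136). It was 1 of 9 receptors called, against 0.103% of all genes. DESeq2 called it as well (adjusted p = 2.7e-13), as 1 of 9 receptors and 1.05% of genes. The edgeR call was lost without KO replicate 3 (adjusted p = 0.0844) or without WT replicate 1, 2 or 3 (0.152, 0.0822 and 0.0905), with log2 fold changes between 1.09 and 1.20 in these fits. The neutrophil marker sum was 1.81 to 66.7 CPM in these KO libraries and 0.109 to 0.273 CPM in the WT libraries, in which Elane, Retnlg, Lcn2, Ltf and Prtn3 were at 0, and the monocyte and macrophage sum was 23.5 to 175 CPM against 18.7 to 22.9 CPM. Both kinds of cell also make Cxcr4. Erythroid markers summed to 26.6 to 769 CPM in KO and 1.80 to 3.48 CPM in WT (median log2 fold change 6.78, 0 of 5 called), CD8 T or NK cell markers to 10.8 to 17.0 and 7.90 to 13.8 CPM (1 of 3 called higher), and T cell markers to 7524 to 7743 and 8231 to 8743 CPM. The part of other cells in the difference was not tested.

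Cxcr3 (364 ± 19.8 against 469 ± 25.3 CPM, -0.36 ± 0.0724, adjusted p = 0.341) and Ccr2 (674 ± 60.6 against 876 ± 54.7 CPM, -0.37 ± 0.087, adjusted p = 0.456) were lower in each HP1a KO Tconv library than in each WT library but were not called. With Cxcr4 this made 3 of 9 receptors without overlap, against 15.3% of genes. The other receptors overlapped, among them Cxcr6 (-0.74), Ccr4 (0.62) and Ccr6 (1.39). None of the 14 other receptors, the ligands, the signalling genes or the factors was called.

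In HP1a KO Tconv with Treg 0 of 9 receptors were called by edgeR (0.123% of genes), 2 had an unadjusted p under 0.05 and DESeq2 called 1 (3.84% of genes). Ccr2 was at 193 ± 68.0 against 86.5 ± 20.2 CPM in WT (1.14 ± 0.307, edgeR adjusted p = 0.206, DESeq2 adjusted p = 0.0165) and Cxcr6 at 379 ± 171 against 204 ± 6.94 CPM (0.88 ± 0.306, adjusted p = 0.315). Every KO library was above every WT library for these 2 of the 9 genes, as for 21.5% of all genes in one direction or the other. Ccr4 (1.32), Ccr6 (1.02), Cxcr3 (0.66) and Ccr9 (0.55) had positive and Cxcr4 (-0.50), Ccr8 (-0.50) and Cx3cr1 (-0.75) negative values, with overlap, and the median over the 9 was 0.66 against -0.01 over all genes. Of the lists only Rgs16 was called, lower in KO (65.8 ± 10.2 against 290 ± 82.3 CPM, -2.17, adjusted p = 0.033).

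In the same libraries neutrophil markers summed to 262 to 461 CPM in KO and 1.58 to 40.1 CPM in WT cells, with 7 of 10 tested and 1 called higher. Monocyte and macrophage markers summed to 64.3 to 313 CPM against 37.9 to 54.9 CPM, with 10 tested and 0 called. None of these markers was at 0 in all KO libraries, and Elane and Prtn3 were in all WT libraries. T cell markers summed to 7454 to 8200 CPM in KO and 9423 to 11304 CPM in WT. Treg markers were also lower in KO, at 717 to 955 against 1165 to 1480 CPM, with 1 of 10 called lower, and erythroid markers summed to 113 to 703 against 2.62 to 49.9 CPM with 0 of 6 called. Monocytes make Ccr2, and the part of other cells in the Ccr2 and Cxcr6 differences was not tested.

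In Tconv of the HP1g line 0 of 9 receptors were called (0.0437% of genes), 3 had an unadjusted p under 0.05 and DESeq2 called 1 (1.43% of genes). Ccr2 was at 331 ± 24.2 in KO against 632 ± 120 CPM in WT (-0.91 ± 0.153, edgeR adjusted p = 0.143, DESeq2 adjusted p = 3.33e-05), under the fold threshold in both. Equal replicate numbers marked pairs in this comparison, and with the replicate block the adjusted p of Ccr2 was 0.0312 at a log2 fold change of -0.90, still under the fold threshold. Ccr4 was at 24.2 ± 5.64 against 39.9 ± 9.14 CPM (-0.70 ± 0.228, adjusted p = 0.44), and these were the 2 of 9 receptors without overlap, against 13.9% of genes. Ccr9 (13.2 ± 2.98 against 28.2 ± 12.4 CPM, -1.07 ± 0.369, adjusted p = 0.481) was the receptor called by DESeq2 (adjusted p = 0.0486). Cx3cr1 was nearly equal in the means, at 157 ± 11.7 against 160 ± 29.4 CPM. Erythroid markers summed to 158 to 3372 CPM in KO and 76.3 to 4974 CPM in WT, and no marker of any list was called.

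In HP1g KO Tconv with Treg, with 2 libraries against 3, edgeR called 0 of 9 receptors and 0 of all genes (0%), 3 receptors had an unadjusted p under 0.05 and DESeq2 called 0 (3.24% of genes). Ccr2 was at 104 ± 103 (n = 2) against 511 ± 218 CPM (n = 3), with a log2 fold change of -2.30 ± 0.777 (edgeR adjusted p = 0.331). Cxcr6 was at 388 ± 132 against 726 ± 206 CPM (-0.91 ± 0.318, adjusted p = 0.346) and Ccr8 at 13.8 ± 1.48 against 20.4 ± 4.56 CPM (-0.57 ± 0.231, adjusted p = 0.417). These were the 3 of 9 receptors without overlap, against 29.4% of genes. The 2 KO libraries differed from each other for most receptors. Without replicate 2, which leaves 1 KO library, Cxcr4 (1.27, adjusted p = 0.0428) and Cxcr3 (-1.22, adjusted p = 0.03) were called. Several marker sums of the KO and WT groups did not overlap either, although no marker was called. Treg markers summed to 942 to 1646 CPM in KO and 674 to 856 CPM in WT, B cell markers to 251 to 266 and 127 to 230.0 CPM, T cell markers to 8112 to 9663 and 6801 to 7657 CPM, and CD8 T or NK cell markers to 11.7 to 11.9 and 7.08 to 9.30 CPM. The part of other cells was not tested.

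**Figure D5:**
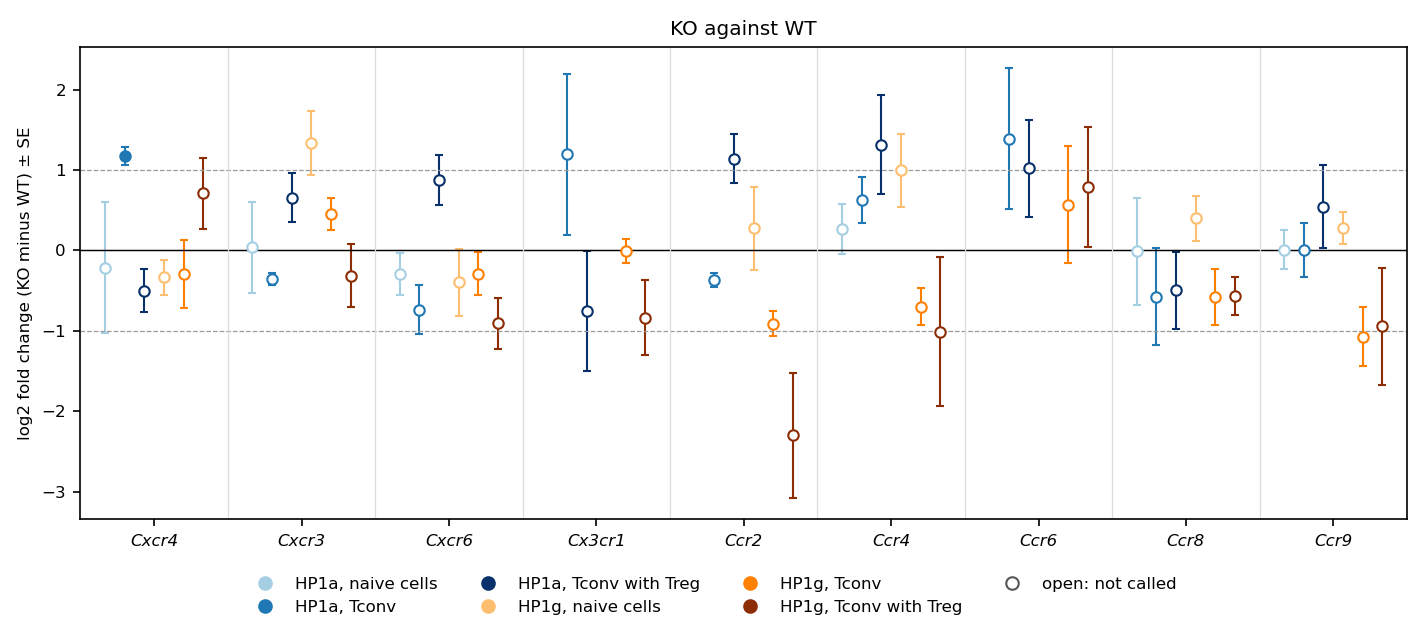
Log2 fold change of each receptor in KO over WT cells with its SE, for each line and condition, with filled points for called genes and dashed lines at the fold threshold of 1. The only filled point is Cxcr4 in HP1a Tconv, at 1.17.

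The KO differences of the lines in Tconv with Treg were set against each other, the HP1g value relative to the HP1a value. Here edgeR called 0 of 9 receptors (2.72% of genes), 3 had an unadjusted p under 0.05 and DESeq2 called 2 (7.51% of genes). The 2 were Ccr2 (-3.44 ± 0.844, edgeR adjusted p = 0.0585, DESeq2 0.000282) and Cxcr6 (-1.79 ± 0.488, edgeR 0.079, DESeq2 0.00607). Ccr2 was called in edgeR without replicate 2 of HP1g KO (-5.19, adjusted p = 0.00571), and so was Cxcr4 (1.78, adjusted p = 0.0369), while Cxcr6 was called without replicate 2 of HP1a KO (-2.06, adjusted p = 0.0469). Of the lists Rgs16 was called higher (4.60), and S1pr1 (-1.45) and Cd69 (-1.42), which encodes an activation marker that holds back S1PR1, were called lower. Of the markers, 4 of 10 for Treg and 1 of 10 for B cells were called higher and 1 of 9 for neutrophils lower, and their part was not tested.

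The comparisons share groups. HP1a WT Tconv, for example, enter the comparison with naive cells, with KO cells and with Treg-exposed cells, and for Cxcr4 the 3 values of this group (8.98, 9.76 and 9.22 CPM) were the lowest of all grafted cells. The Cxcr4 values of 1.90 for Treg and 1.17 for KO therefore rest on the same 3 libraries.

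Likeness to other genes was described by Pearson's r of log2 group means over the 12 groups, among 9342 genes. The 12 points fall into 4 naive and 8 grafted groups, so that r mostly reflects that split, and no test was made. Nearest to Cxcr6 was Adam8 (0.999), to Cxcr3 Zdhhc2 and Runx2 (0.998), to Ccr2 Ifitm2 (0.996) and to Cx3cr1 Zcchc18, with Gzmb, a cytotoxic granule protease, also among the nearest 3 (0.994). Ccr8 was nearest to Rasl11a (0.992) and Ccr9 to Uap1 (0.981). Among the nearest 3 genes were Il9r (0.987) for Ccr4 and Il22 (0.981), a Th17 cytokine gene, for Ccr6. For Cxcr4 the nearest gene, Fxr1, reached only 0.885. Among the receptors themselves, r lay between 0.922 and 0.993 for the 7 without Cxcr4 and Ccr9, between 0.521 and 0.779 for Ccr9 with these 7, and between -0.458 and -0.133 for Cxcr4 with the other 8.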

How the data were processed

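RNA was amplified with a SMART-Seq kit, which does not mark the strand, and sequenced. The authors ran the nf-core/rnaseq pipeline, with Trim Galore and Cutadapt for trimming, STAR for alignment to GRCm39 with an Ensembl annotation, and Salmon for quantification. They deposited estimated counts for each gene as Salmon gives them, with no filter and no scaling, and 82.9% of the values were whole numbers. Reads that match several genes are divided between them, so genes with near-identical copies are less certain. The estimated counts deposited by the authors were rounded here. Libraries were put into groups by their titles, and no 2 libraries of a group held identical or near-identical counts.

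Differences were tested with the quasi-likelihood test of edgeR (version 4.0.16 in R 4.3.3, robust, TMM factors, filterByExpr, only the libraries of the groups compared) in 18 comparisons. The p-values were adjusted by the Benjamini-Hochberg method over all genes tested, and calls used the study's thresholds, 0.05 for the adjusted p and 1 for the absolute log2 fold change. In all comparisons 6 of the 9 receptors passed the filter, as Cx3cr1 and Ccr6 were not tested in naive cells of either line and Ccr2 not in those of the HP1a line. CPM used TMM-scaled totals of the 35 libraries, and levels per kilobase the GENCODE union exon length. The exceptions were the summed level of the 9 receptors, which used plain library totals, and the library left out, which was scaled with all 36. Errors are SD over libraries for CPM and SE for log2 fold changes, and floors of 3 counts cover counting error only. The fits were tested on simulated data.

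The replicate number was taken to pair libraries where each of 3 or more correlations of deviations from group means was above 0.1. This held for KO against WT in HP1a naive cells (0.290 to 0.659) and HP1g Tconv (0.112 to 0.431). HP1g KO against WT with Treg gave only 2 correlations (0.198 and 0.384), too few for this rule. The alternatives were DESeq2 1.42.0, RLE factors, no filter on low counts, no fold threshold, all libraries in 1 fit and the block. Further ones were the left-out library included, CPM by library totals and each library left out in turn. The authors used an earlier version of DESeq2.

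The receptors and the lists of other genes were chosen with earlier results of these data known. All 9 receptors are named, and of the lists up to 3 called genes per direction with a mean of at least 5 CPM were eligible. As an exception, all 4 factors that fell with Treg in HP1a WT are named. Promoter sequences are from RefSeq (GRCm38.p6), a build other than that of the counts. ATAC-seq samples were not analysed here. Some genes are not reported here.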

Additional observations from a re-analysis of the deposited data

Results flagged for a closer look

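The Treg difference in WT cells differed between the lines for Ccr2 by -3.00 (edgeR, adjusted p = 0.00496) and for Cxcr6 by -2.37 (adjusted p = 0.0119) on the log2 scale. Both genes were lower with Treg in 3 of 3 HP1a WT libraries. The line and the experiment, with its ratio of Tconv to Treg, cannot be told apart here.

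The KO difference of Ccr4 in the HP1g line was 0.997 in naive cells and -0.70 in Tconv, with every library of each group on its side. The difference between these values was not tested, and neither value was called.

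On the scaled CPM, the library left out, replicate 3 of HP1g KO Tconv with Treg, held more of 5 receptors than any of the 3 HP1g WT libraries with Treg. It had 60.4 CPM of Cxcr4 against at most 29.4, 788 of Cxcr3 against at most 395.5, 524 of Cx3cr1 against at most 159, 212 of Ccr4 against at most 61.9 and 298 of Ccr8 against at most 24.8. It held less of the other 4 than any of these WT libraries, with 44.8 CPM of Cxcr6 against at least 505, 16.1 of Ccr2 against at least 327, 1.79 of Ccr6 against at least 4.26 and 3.14 of Ccr9 against at least 8.06. The left-out library was scaled in a fit of all 36 libraries, the others in a fit of 35. A floor of 3 counts was 0.192 CPM in it and at most 0.0819 CPM in the others. Its total of 36961946 was close to their lowest, 37029519. Its unscaled counts of Cxcr4 (943) and Cxcr3 (12313) were below those of each WT library (at least 1031 and 15835), whose totals were larger. Its place for Cxcr4 and Cxcr3 therefore depends on the scaling. Groups of 3 libraries were too small for a formal check on single libraries that stand apart. The chi-square values given for replicates only describe such libraries.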

How the results depend on the processing

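No called receptor value changed its sign under an alternative. Values that were not called did when 1 library was left out, among them Cxcr4 (-0.31 to 1.27), Cxcr3 (-1.22 to 0.23) and Ccr6 (-1.12 to 1.58) in HP1g KO against WT with Treg, Cxcr4 in HP1a KO against WT naive cells (-1.11 to 0.97) and Cxcr4 in Tconv against naive cells of HP1a KO (-0.13 to 1.07). Of the counts of called receptors 213 were within 1.5 times the main count, 22 rose and 5 fell, and of the single receptor values 1891 kept their side of the threshold, 43 passed it and 9 lost it. The cause of each change was not tested. With DESeq2 the receptors called were 1 for HP1a KO with Treg, 1 for HP1g KO Tconv, 1 for Treg in HP1a KO, 1 for Treg in HP1g KO, 3 for the HP1a interaction, 2 for the KO difference between lines and 4 in place of 2 for the WT Treg difference between lines. With all libraries in 1 fit they were 0 in place of 1 for HP1a KO Tconv, and 1, 1, 1 and 2 for HP1a KO with Treg, HP1g KO with Treg, Treg in HP1a KO and the KO difference between lines. With no filter on low counts, 5 in place of 3 were called for Treg in HP1a WT and 1 for the HP1a interaction. With the replicate block 2 were called for Treg in HP1a KO, and the block changed no other count of receptors by over 1.5 times. Leaving out 1 library gave 0 to 1 for HP1a KO Tconv, Treg in HP1a KO, Treg in HP1g KO and the HP1a interaction, and 0 to 2 for HP1g KO with Treg and the KO difference between lines. By library totals, Cxcr6 in HP1a WT Tconv with Treg was 213 CPM in place of 204. Including the left-out library changed no count of called receptors. DESeq2 called more genes overall where edgeR called few, such as 201 against 16 for HP1a KO Tconv and 713 against 20 for HP1a KO with Treg. Naive levels of Ccr6, Cx3cr1 and Ccr2 are limited by depth.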
